A study of Homo sapiens with 12 samples.

Results

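The carcinoembryonic antigen-related cell adhesion molecules (CEACAM) are cell surface glycoproteins of the immunoglobulin superfamily, and 6 of their genes, CEACAM1, CEACAM5, CEACAM6, CEACAM7, CEACAM8 and CEACAM19, were followed here among the 22170 genes of a messenger RNA dataset. They were taken by gene symbol, and the family was chosen by the normalized counts of CEACAM5, which were much higher when lapatinib was added after GSK126. Values of that contrast are therefore given as a description, without a test.

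All libraries came from SKBR3, an established HER2-positive breast cancer cell line, labelled wild type, and each of the 4 groups had 3 libraries. The combination group received 5 µM GSK126, an inhibitor of the histone methyltransferase EZH2, for 7 days (day -6 to day 1) and 100 nM lapatinib, an inhibitor of the HER2 and EGFR kinases, for the last 24 h. The GSK126 group received the 5 µM GSK126 alone over the same days, the Lapatinib group was kept in DMSO and then given 100 nM lapatinib for the last 24 h, and the DMSO group received the vehicle throughout. Every group was passaged on day -3 and plated on day -1, with 350000 cells in each 6 cm dish. The labels number the replicates of a group but do not say whether they came from separate cultures, so p-values measure the spread between these libraries, which may be technical. All results are from this 1 cell line.

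Most CEACAM proteins bind each other between neighbouring cells, through the domain at their outer end. CEACAM1 spans the membrane and carries inhibitory tyrosine motifs in its tail, which recruit the phosphatases SHP-1 and SHP-2. CEACAM5 is the carcinoembryonic antigen measured in blood as a marker of colorectal and some breast tumours. It is held in the membrane by a glycosylphosphatidylinositol (GPI) anchor, like CEACAM6, CEACAM7 and CEACAM8. CEACAM6 is often abundant in carcinomas, CEACAM7 is best known from differentiated colon epithelium, and CEACAM8 (CD66b) is a granulocyte protein. CEACAM19 is a transmembrane relative whose function is little known.

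The libraries held 17.7 M to 30.3 M gene reads, and the levels below are normalized counts, that is, reads divided by a size factor per library. One library stood apart in its depth and its low counts. The first combination library was the shallowest, had a read in 21669 genes against 15059 to 17338 in the others, and had a read in 89.0% of the genes that held 1 to 3 reads in all other libraries together (3.1 to 10.6% in the others). The spread was widest among the GSK126 libraries, with a median SD of 0.432 on the log2 scale, against 0.203 in the combination, 0.116 in lapatinib and 0.243 in DMSO. Messenger RNA of ERBB2, which encodes HER2, averaged 172300 normalized counts in the combination, 120400 in GSK126, 297600 in lapatinib and 154300 in DMSO, and all 12 luminal and HER2 marker genes were detected in every library. EZH2 messenger RNA averaged 553 normalized counts in the combination, 1383 in GSK126, 465 in lapatinib and 1549 in DMSO. GSK126 acts on the activity of EZH2, so this level is no check of the drug.

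CEACAM5 and CEACAM6 carried nearly all messenger RNA of the 6 genes, and both were higher with either drug than in DMSO and highest with both. CEACAM5 was at 2655, 2568 and 2211 normalized counts in the combination libraries, at 210.3, 309.1 and 204.2 in GSK126, at 296.7, 291.6 and 302.2 in lapatinib, and at 63.7, 52.4 and 44.8 in DMSO. The DMSO libraries were all below the GSK126 and lapatinib libraries, and the combination libraries were all above them. CEACAM6 was at 6998, 7137 and 6265 in the combination, at 1985, 2628 and 1799 in GSK126, at 1868, 1903 and 2081 in lapatinib, and at 704.8, 799.4 and 826.1 in DMSO. GSK126 and lapatinib libraries overlapped for CEACAM6, whereas the DMSO libraries stayed below and the combination libraries above all others. Per kilobase of transcript, the scale on which genes can be compared, CEACAM6 averaged 2520 ± 174 normalized counts in the combination, 791 ± 161 in GSK126, 723 ± 42.2 in lapatinib and 288 ± 23.6 in DMSO (SD, n = 3 each). On the same scale CEACAM5 averaged 862 ± 81.8 in the combination, 83.9 ± 20.5 in GSK126, 103.0 ± 1.84 in lapatinib and 18.7 ± 3.31 in DMSO (SD, n = 3 each). The highest group mean of any other member was 15.6 per kilobase, of CEACAM7 in lapatinib. In bulk RNA, a larger share of expressing cells and more RNA per cell cannot be told apart.

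**Figure D1:**
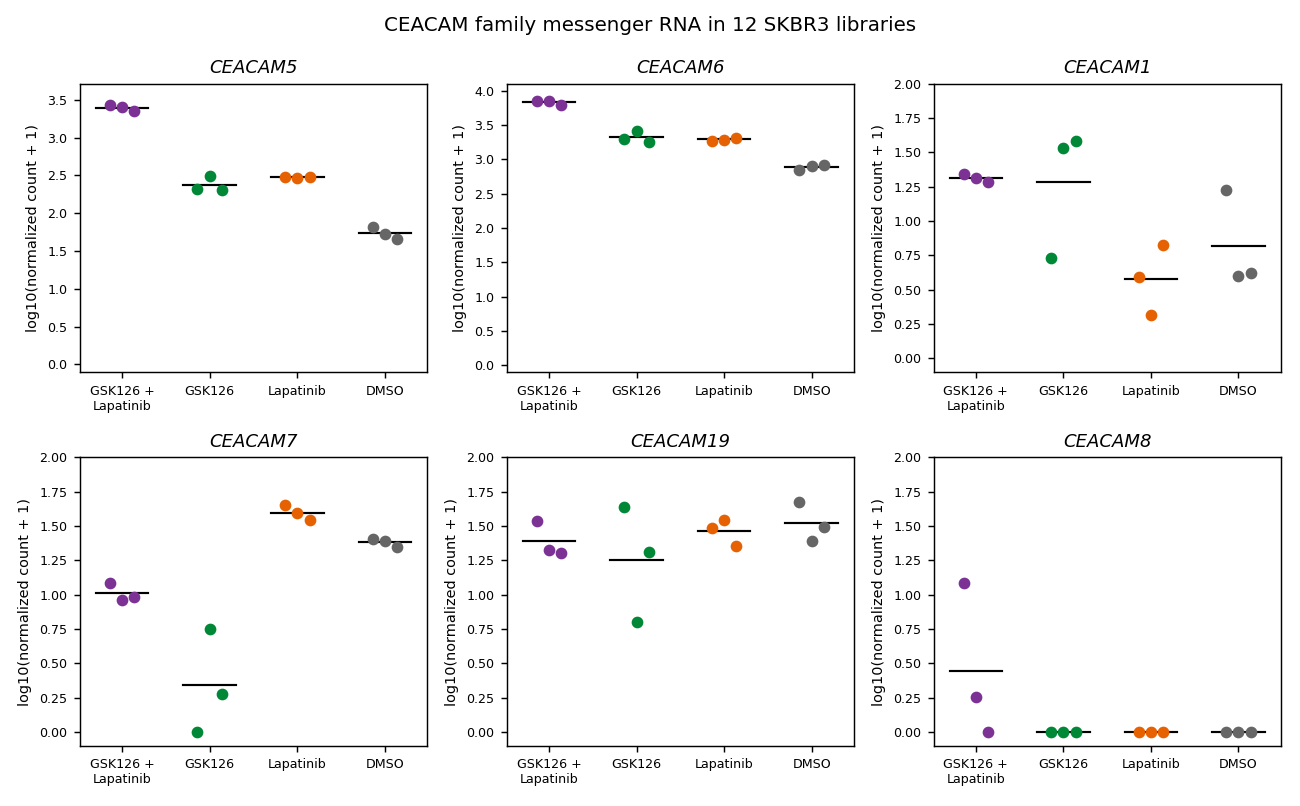
Levels of the 6 CEACAM genes in the 12 libraries, as log10 of the normalized count plus 1, with a scale of its own for each of the 2 abundant genes. Points are libraries, and lines are the group means of these log10 values. CEACAM5 and CEACAM6 were highest in the combination and lowest in DMSO, CEACAM7 was highest in lapatinib and lowest in GSK126, and CEACAM8 was at 0 outside 2 combination libraries.

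The promoters of the genes that moved together and of those that did not are set side by side here, since the family arose by gene duplication and its start regions remain alike. Sequences are from RefSeq (build GRCh38.p14), from 250 bases before to 50 bases after the transcription start, 5′ to 3′ on the gene's own strand. The RefSeq table held 5 of the 6 genes, and CEACAM19 was not among them. Capitals mark the E-box CACGTG and the core of the interferon-stimulated response element (GAAA and again GAAA, with 2 bases between). Both were searched on both strands.
CEACAM5 (chr19:41708376-41708675, plus strand): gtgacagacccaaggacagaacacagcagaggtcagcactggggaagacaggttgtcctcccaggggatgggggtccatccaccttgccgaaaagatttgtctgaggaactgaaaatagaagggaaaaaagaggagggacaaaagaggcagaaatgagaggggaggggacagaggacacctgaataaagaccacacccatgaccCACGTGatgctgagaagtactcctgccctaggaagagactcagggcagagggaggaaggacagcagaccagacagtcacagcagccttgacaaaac
CEACAM6 (chr19:41755280-41755579, plus strand): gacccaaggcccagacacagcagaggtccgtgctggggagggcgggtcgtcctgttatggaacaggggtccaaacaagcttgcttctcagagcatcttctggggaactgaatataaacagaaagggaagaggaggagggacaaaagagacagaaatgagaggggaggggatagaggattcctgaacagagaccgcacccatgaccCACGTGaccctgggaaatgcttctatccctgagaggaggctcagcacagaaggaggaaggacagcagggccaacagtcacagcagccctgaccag
CEACAM7 (chr19:41688221-41688520, minus strand): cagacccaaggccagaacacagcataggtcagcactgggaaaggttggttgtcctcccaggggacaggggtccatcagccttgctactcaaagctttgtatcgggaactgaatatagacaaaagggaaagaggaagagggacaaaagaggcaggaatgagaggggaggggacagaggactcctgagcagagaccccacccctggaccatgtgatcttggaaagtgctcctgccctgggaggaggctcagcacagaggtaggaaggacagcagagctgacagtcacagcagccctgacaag
CEACAM1 (chr19:42528432-42528731, minus strand): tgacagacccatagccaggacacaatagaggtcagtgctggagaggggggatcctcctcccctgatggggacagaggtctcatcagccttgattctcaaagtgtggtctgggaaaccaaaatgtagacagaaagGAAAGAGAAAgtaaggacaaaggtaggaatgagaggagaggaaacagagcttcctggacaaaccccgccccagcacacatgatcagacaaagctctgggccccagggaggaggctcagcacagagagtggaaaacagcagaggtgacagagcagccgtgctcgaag

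The CEACAM5 and CEACAM6 promoters were identical at 81.7% of aligned bases, and CEACAM7 matched CEACAM5 at 84.7% and CEACAM6 at 83.4%, so the promoters of the 2 genes that were higher together were no closer to each other than to that of CEACAM7. The E-box, a motif bound by USF and other helix-loop-helix factors, began 46 bases before the start of CEACAM5 and 45 bases before that of CEACAM6. It was in 7.2% of 34796 human promoters of the same length. The windows that align with it are shown next, with the box in capitals.
CEACAM5: ccatgaccCACGTGatgctgag
CEACAM6: ccatgaccCACGTGaccctggg
CEACAM7: ccctggacCATGTGatcttgga
CEACAM1: ccagcaCACATGatcagaca
Counted from 1 at the first base of the box in CEACAM5, the change is C3T in CEACAM7 and G4A in CEACAM1, and there is none in CEACAM6. The CEACAM8 promoter aligned with a gap at this place. The interferon-stimulated core was in the CEACAM1 window alone among the 5, 116 bases before the start, and in 3.57% of all promoters. The STAT motif TTCNNNGAA was in none of the 5 windows and in 7.67% of all promoters. The KLF motif CACCC was in the windows of CEACAM5, CEACAM6, CEACAM7 and CEACAM8 and in 59.8% of all promoters, and the GC box GGGCGG was in those of CEACAM1, CEACAM6 and CEACAM8 and in 44.9%. In CEACAM5 and CEACAM6, CACCC lies ahead of the E-box without overlapping it. A match is a description of letters, and binding was not measured.

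Lapatinib against DMSO shares no library with the contrast that chose the family, so all 5 members that passed the filter on low values were tested in it. CEACAM5 and CEACAM6 rose, and CEACAM1, CEACAM7 and CEACAM19 did not pass the test. CEACAM5 averaged 296.8 ± 5.28 normalized counts with lapatinib and 53.6 ± 9.52 in DMSO (SD, n = 3 each), a difference of 2.46 ± 0.19 on the log2 scale (limma on log2(value + 1), ± SE, Benjamini-Hochberg adjusted p = 2e-06). This placed CEACAM5 at rank 104 of 14179 genes by size of increase. CEACAM6 averaged 1951 ± 114 with lapatinib and 776.8 ± 63.7 in DMSO, a difference of 1.33 ± 0.15 (limma, adjusted p = 4.17e-05). With 2 of 5 members called, the background is 28.0% of all genes tested called in this comparison, 13.7% higher and 14.3% lower. CEACAM7 was at 44.1, 38.3 and 33.8 normalized counts with lapatinib and at 24.5, 23.7 and 21.4 in DMSO. These libraries did not overlap, but with a log2 difference of 0.71 ± 0.55 the gene did not pass (limma, adjusted p = 0.361). Scaling the libraries on the spike-in transcripts moved the median of all genes to -0.491 (log2) and ended the call for CEACAM6 (limma, 0.79, adjusted p = 0.428), whereas CEACAM5 stayed called (1.93, adjusted p = 0.0438).

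GSK126 alone moved the family in both directions. CEACAM6 rose, with a mean of 2137 ± 435 normalized counts in GSK126 and 776.8 ± 63.7 in DMSO (SD, n = 3 each), a log2 difference of 1.44 ± 0.15 (limma, adjusted p = 3.05e-05). CEACAM7 fell, with 0, 4.6 and 0.884 normalized counts in GSK126, which are 7 reads in all, against 24.5, 23.7 and 21.4 in DMSO. Its log2 difference of -3.46 ± 0.55 (limma, adjusted p = 0.000861) stood at rank 14177 of 14179 genes ordered from the largest increase to the largest decrease. With so few reads the size of the fall rests on the pseudocount and the libraries, and it lay between -4.59 and -2.1 over the alternatives, all of which called it where it was tested. Of the 4 members tested here 2 were called, against 14.6% of all genes, 10.7% higher and 3.93% lower. CEACAM5 is described without a test, because the GSK126 libraries took part in its choice. It averaged 241.2 ± 58.9 in GSK126 and 53.6 ± 9.52 in DMSO, a log2 difference of 2.14 ± 0.19.

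CEACAM1 was low everywhere and differed between the GSK126 libraries. It was at 4.38, 33.0 and 37.1 normalized counts in GSK126 and at 15.9, 2.96 and 3.2 in DMSO, so that the first GSK126 library lay within the DMSO range. The log2 difference of 1.54 ± 0.80 did not pass (limma, adjusted p = 0.245). Without the first GSK126 library it was 2.46 and passed (limma, adjusted p = 0.0223, with adjusted p from 0.0223 to 0.496 over the libraries left out in turn). In spike-in levels the other GSK126 libraries correlated at 0.9952 with each other, and at 0.9693 and 0.9622 with the first. With the first combination library they correlated at 0.9952 and 0.996. With DMSO the first GSK126 library correlated at 0.9832 to 0.9909 and the others at 0.9803 to 0.9893. That fit thus set only GSK126 libraries of the other spike-in composition against DMSO. The part of this composition in the call was not tested. Over the other alternatives the CEACAM1 difference ran from -0.285 to 2.46, the lowest from the fit that kept the first GSK126 library alone. With any 1 library left out the difference was 1.04 to 2.46. Its sign thus depends on the GSK126 libraries kept, and no call is settled. CEACAM19 was at 42.7, 5.37 and 19.5 in GSK126 and at 46.6, 23.7 and 29.9 in DMSO, a difference of -0.89 ± 0.58 that did not pass (limma, adjusted p = 0.365). Without the first GSK126 library it was -1.54 and passed (limma, adjusted p = 0.0437, with adjusted p from 0.0437 to 0.867 over the libraries left out in turn). The same limit on spike-in composition holds. Over the other alternatives the CEACAM19 difference ran from -1.54 to 0.401, the highest from the fit that kept the first GSK126 library alone. CEACAM19 shares 1.52% of its 75-base windows with its neighbour PVR and CEACAM1 shares 1.1% with CEACAM3 and CEACAM8, so a few of their reads may be uncertain. CEACAM5 shares 16.2% of its windows and CEACAM6 2.69% with other GENCODE genes, mostly with one known only by a clone identifier that is no row of the deposited table, so how such reads were counted bears on both. With genes of the table they share 0.128% and 0.134%, and they share no window with each other. Spike-in scaling ended the call for CEACAM6 in this comparison (limma, 1.48, adjusted p = 0.168).

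The same direction was seen when cells with both drugs were set against cells with lapatinib alone. CEACAM6 rose to 6800 ± 469 normalized counts in the combination, against 1951 ± 114 in lapatinib (SD, n = 3 each), a log2 difference of 1.80 ± 0.15 (limma, adjusted p = 3.79e-06). CEACAM7 fell to 11.2, 8.09 and 8.67 in the combination, against 44.1, 38.3 and 33.8 in lapatinib, a log2 difference of -1.95 ± 0.55 (limma, adjusted p = 0.0262). The groups did not overlap for either gene. CEACAM1 was at 21.2, 19.4 and 18.3 in the combination and at 2.94, 1.06 and 5.63 in lapatinib, and although no library overlapped, its log2 difference of 2.45 ± 0.80 did not pass (limma, adjusted p = 0.0506). CEACAM1 passed the filter on low values only through libraries with GSK126, so calls of this gene toward higher are no support. The call was gained without the first DMSO, the first GSK126 or the second GSK126 library (limma, adjusted p from 0.00966 to 0.19 over the libraries left out in turn). DESeq2, the fit of only the groups compared and both fits without several libraries also called it (adjusted p from 0.005 to 0.376 over the other alternatives). CEACAM19 was at 33.6, 20.2 and 19.3 in the combination and at 29.4, 34.1 and 21.6 in lapatinib, with overlapping libraries and a log2 difference of -0.23 ± 0.58 (limma, adjusted p = 0.853). CEACAM5, described without a test, averaged 2478 ± 235 in the combination and 296.8 ± 5.28 in lapatinib, a log2 difference of 3.05 ± 0.19. Of the 4 members tested 2 were called, against 17.9% of all genes, 11.5% higher and 6.35% lower. The CEACAM7 call was lost on leaving out any 1 lapatinib or combination library, with a log2 difference from -2.07 to -1.85 and an adjusted p of at most 0.104 (limma). Under spike-in scaling neither CEACAM6 (limma, 1.34, adjusted p = 0.243) nor CEACAM7 (adjusted p = 0.13) passed.

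**Figure D2:**
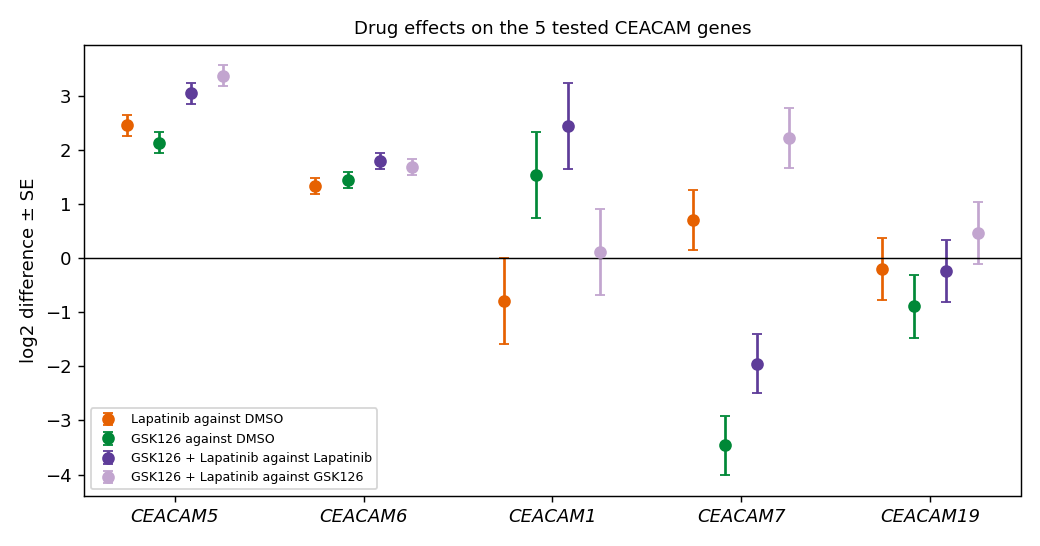
Fitted log2 differences of the 5 tested CEACAM genes, with bars of 1 SE, for each drug against DMSO and for the combination against each drug. The horizontal line marks no difference. All 4 differences were positive for CEACAM5 (2.14 to 3.38) and CEACAM6 (1.33 to 1.80), whereas for CEACAM7 both contrasts that add GSK126 were negative and both that add lapatinib positive.

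Against DMSO, the combination gave the largest difference of CEACAM6 among the 4 tested comparisons, 3.13 ± 0.15 on the log2 scale (limma, adjusted p = 2.14e-08), which no setting ended. It was the 1 member called of the 4 tested, where 42.1% of all genes were called, 22.0% higher and 20.1% lower. CEACAM7 averaged 9.32 ± 1.65 normalized counts in the combination and 23.2 ± 1.65 in DMSO (SD, n = 3 each), and its log2 difference of -1.24 ± 0.55 did not pass (limma, adjusted p = 0.0888). CEACAM1 averaged 19.6 ± 1.44 in the combination and 7.37 ± 7.42 in DMSO, with a difference of 1.65 ± 0.80 that did not pass (limma, adjusted p = 0.114), and CEACAM19 had a difference of -0.43 ± 0.58 (limma, adjusted p = 0.58). CEACAM5 averaged 2478 ± 235 in the combination and 53.6 ± 9.52 in DMSO, a log2 difference of 5.51 ± 0.19 given without a test, at rank 30 of 14179 genes.

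The contrast that chose the family, both drugs against GSK126 alone, is given as values only. CEACAM5 differed by 3.38 ± 0.19 on the log2 scale (SE), which is 10.3-fold between the means and rank 6 of the 14179 genes. CEACAM7 differed by 2.22 ± 0.55, CEACAM6 by 1.69 ± 0.15, CEACAM19 by 0.46 ± 0.58 and CEACAM1 by 0.11 ± 0.80. The background is 18.2% of all genes called, 8.48% higher and 9.71% lower, and nothing is read from it for the members.

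The excess of the combination over the sum of both single-drug differences is given by the interaction on the log2 scale. For CEACAM5 it was 0.92 ± 0.27 (SE), so that the geometric level of 2470 normalized counts was 1.89 times the 1308 that the sum of both differences gives. For CEACAM6 it was 0.36 ± 0.21, with a geometric level of 6789 against 5300, a ratio of 1.28. The interaction was 1.51 ± 0.78 for CEACAM7, 0.90 ± 1.13 for CEACAM1 and 0.66 ± 0.82 for CEACAM19. The background is 3 of 14179 genes, 0.0212%, called for the interaction by limma, and nothing is read from it for the members. Under spike-in scaling the interaction was 0.407 for CEACAM5 and -0.146 for CEACAM6, so that the sign for CEACAM6 is not settled.

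Reads of both genes in one library give a ratio that no scaling between libraries can change. CEACAM5 had 37.9, 36.0 and 35.3 reads for each 100 CEACAM6 reads in the combination, 10.6, 11.8 and 11.4 in GSK126, 15.9, 15.3 and 14.5 in lapatinib, and 9.04, 6.55 and 5.43 in DMSO. The groups did not overlap, and the order was combination, lapatinib, GSK126, DMSO. The means were 36.4 ± 1.3 in the combination, 11.3 ± 0.61 in GSK126, 15.2 ± 0.7 in lapatinib and 7.01 ± 1.8 in DMSO (SD, n = 3 each). CEACAM5 thus stood higher relative to CEACAM6 with either drug than in DMSO, and highest with both. The transcripts are of similar length, 2874 bases for CEACAM5 and 2700 for CEACAM6, and the ratio includes the contrast that chose CEACAM5, so it carries no test.

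**Figure D3:**
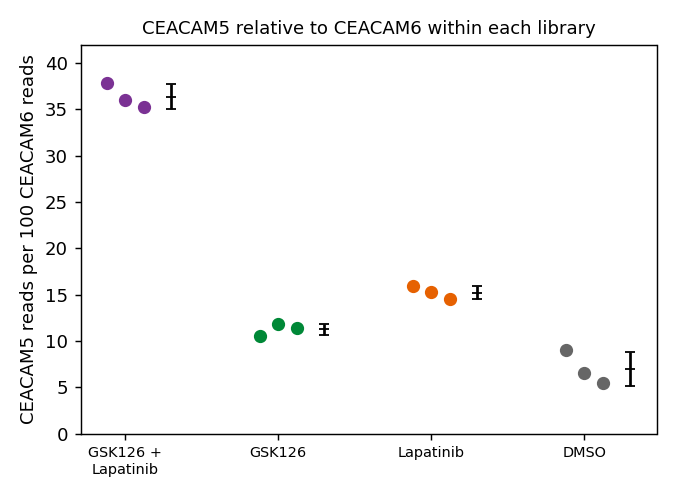
CEACAM5 reads for each 100 CEACAM6 reads in every library, with the group mean and 1 SD beside the points. The combination libraries sit between 35.3 and 37.9, lapatinib between 14.5 and 15.9, GSK126 between 10.6 and 11.8 and DMSO between 5.43 and 9.04.

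CEACAM8 was not tested. It had 9 reads in the first combination library and 1 in the second, and 0 in the third and in all GSK126, lapatinib and DMSO libraries. A count of 0 allows up to 3 reads, which correspond to 2.3 to 3.73 normalized counts over the libraries, counting error only. The 9 reads came from the library that held reads in most genes silent elsewhere, and the part of that library in them was not tested. Granulocyte and leukocyte markers bear on the source of CEACAM8, and PTPRC, FCGR3B, MPO, ELANE, LYZ and CD3E were at a median of 0 over the 12 libraries. The sum of the 12 leukocyte markers nevertheless ranged from 22060 to 35460 normalized counts in the combination, 26490 to 54440 in GSK126, 1868 to 2365 in lapatinib and 6708 to 12330 in DMSO, nearly all of it from S100A8 and S100A9, which epithelial cells can also express. CSF3R, the receptor of a granulocyte growth factor, was at 11.3 to 17.4 in the combination, 4.38 to 13.3 in GSK126, 0 to 0.979 in lapatinib and 0 to 4.9 in DMSO. Intestinal markers bear likewise on CEACAM5 and CEACAM7. CDX1, CDX2, CDH17, VIL1 and GPA33 were at a median of 0, and the sum of the 9 intestinal markers was 107.6 to 182.2 in the combination, 169.5 to 349.4 in GSK126, 381.9 to 470.4 in lapatinib and 380.4 to 802.9 in DMSO, most of it TFF3. KRT20, an intestinal keratin, ran the other way, at up to 23.6 in the combination, 3.29 to 11.5 in GSK126, 0 to 0.979 in lapatinib and 0 in DMSO, and every combination library lay above every GSK126 library. TFF3 was called lower by limma in GSK126 against DMSO and in the combination against lapatinib and against DMSO. KRT20 was called higher in the same comparisons. It passed the filter on low values only through libraries with GSK126, so its calls there are no support. The part of these markers in the CEACAM levels was not tested.

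A few relatives outside the 6 genes were called with GSK126, and their calls in GSK126 alone against DMSO depended on 1 library. Of 18 other CEACAM genes and pregnancy-specific glycoprotein (PSG) genes in the table, 4 passed the filter. In GSK126 against DMSO 3 of the 4 rose and none fell, where 14.6% of all genes were called. The median log2 difference was 2.02, against -0.0448 over all genes. The 3 called were PSG4 (1.57, limma, adjusted p = 0.0137), PSG5 (2.47, adjusted p = 0.0395) and the pseudogene CEACAM22P. PSG5, CEACAM22P and CEACAM21 passed the filter only through libraries with GSK126. Counts over the 4 genes are therefore no support for a rise with GSK126 or for its absence with lapatinib. PSG4 averaged 110.7 ± 11.1 normalized counts in the combination, 78.0 ± 35.4 in GSK126, 24.1 ± 8.75 in lapatinib and 23.4 ± 3.2 in DMSO (SD, n = 3 each). PSG proteins are secreted by the placenta. PSG4 and PSG5 also rose in the combination against lapatinib, by 2.20 (limma, adjusted p = 0.00116) and 3.50 (adjusted p = 0.00458), and 0 of the 4 passed in lapatinib against DMSO by limma, edgeR or DESeq2, or at an unadjusted limma p under 0.05. Whether the 2 drugs differed in this was not tested. PSG genes are close copies of each other, and how reads that match several of them were counted is not given in the sources used here. Without the third GSK126 library 0 of the 4 were called in GSK126 against DMSO. With the filter of 50, under which 1 was tested, 1 was called, as in the fit of only the groups compared and under spike-in scaling. Over all alternatives other than leaving out 1 library the count ran from 0 to 3. With any library left out 2 were called in the combination against lapatinib, where 17.9% of all genes were, and 0 under spike-in scaling. In the combination against DMSO 2 were called, where 42.1% of all genes were. That count was 2 or 3 with any library left out and 0 to 3 under the other alternatives.

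The next list holds adhesion molecules and other surface proteins of the immunoglobulin superfamily, taken with EPCAM. They moved both ways with lapatinib, and those called with GSK126 were mainly higher. Of 33 tested, 6 rose and 9 fell in lapatinib against DMSO (median log2 difference -0.181, all genes 0.0377), where 28.0% of all genes were called. In GSK126 against DMSO 13 rose and 1 fell (median 0.444, all genes -0.0448), where 14.6% of all genes were called, 10.7% higher and 3.93% lower. VTCN1 (B7-H4, an inhibitory ligand of T cells) averaged 13110 ± 345 normalized counts with lapatinib and 4457 ± 327 in DMSO (SD, n = 3 each), a log2 difference of 1.56 (limma, adjusted p = 2.53e-05). BCAM, a laminin receptor, rose by 1.15 (limma, adjusted p = 0.000194). ICAM1, the ligand of leukocyte integrins, fell by 1.89 with lapatinib (limma, adjusted p = 0.000185). In the combination against lapatinib, where 17.9% of all genes were called, 11 rose and none fell (median 0.255, all genes -0.0252). They were led by ICAM1 (2.77, limma, adjusted p = 8.82e-06), MCAM (1.99, adjusted p = 1.28e-05) and CD47 (0.96, adjusted p = 9.1e-05). ICAM1 averaged 112.5 ± 17.8 in the combination, 418.1 ± 59.0 in GSK126, 16.0 ± 4.79 in lapatinib and 60.6 ± 8.63 in DMSO. The 14 calls in GSK126 against DMSO came to 8 or 9, all higher, on leaving out any DMSO library or the second GSK126 library, and to 4 in the fit of only the groups compared. Under spike-in scaling 1 of the 33 was called in lapatinib against DMSO and 2 in GSK126 against DMSO.

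CEACAM5, CEACAM6, CEACAM7 and CEACAM8 need the GPI anchor pathway. Of its 29 genes, all tested, 3 rose and 1 fell in lapatinib against DMSO (median log2 difference 0.136), where 28.0% of all genes were called. In GSK126 against DMSO none rose and 3 fell (median -0.239), where 14.6% of all genes were called. In the combination against lapatinib none rose and 1 fell (median -0.166), where 17.9% of all genes were called. PGAP3, which remodels the lipid of the anchor and lies next to ERBB2, rose by 0.74 with lapatinib (limma, adjusted p = 0.00467), and MPPE1, which trims the anchor's glycan, rose by 0.63 (adjusted p = 0.0217). PIGU, a subunit of the enzyme that attaches the anchor, fell by 1.10 on the log2 scale (limma, adjusted p = 0.000665). PGAP2, another remodelling gene, averaged 680.8 ± 53.8 normalized counts in the combination and 1427 ± 85.4 in lapatinib (SD, n = 3 each), a log2 difference of -1.07 (limma, adjusted p = 0.000295). These counts are not stable. In lapatinib against DMSO the 4 calls came to 2 without the second DMSO, the second lapatinib or the third lapatinib library, to 9 without the first GSK126 library, and to between 1 and 13 under the other alternatives. In GSK126 against DMSO the 3 calls came to 1 without the third DMSO library and to 0 to 10 under the other alternatives, with 0 under total-count scaling, under spike-in scaling and in the fit of only the groups compared. In the combination against lapatinib the 1 call came to 2 without the first DMSO or the third GSK126 library, to 5 and 4 without the first and the second GSK126 library, and to 0 to 10 under the other alternatives.

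Proteins that bind the tail of CEACAM1 or signal with it include cytoskeletal proteins, SRC family kinases and the insulin receptor. Of 24 tested, 2 rose and 8 fell in lapatinib against DMSO (median log2 difference -0.274), where 28.0% of all genes were called. In GSK126 against DMSO 6 rose and none fell (median 0.0993), where 14.6% of all genes were called. Without the third DMSO library the count was 3, and it was 2 in the fit of only the groups compared. In the combination against lapatinib 7 rose and none fell (median 0.0732), where 17.9% of all genes were called. With lapatinib the falls were led by the actin-binding protein FLNA (-1.41, limma, adjusted p = 4.24e-06), the actin gene ACTB (-1.26, adjusted p = 0.000123) and the tropomyosin gene TPM1 (-0.97, adjusted p = 0.000136). In the combination against lapatinib the kinase FYN (2.54, limma, adjusted p = 3.71e-06), the insulin receptor INSR (1.57, adjusted p = 2.92e-05) and the kinase SRC (1.21, adjusted p = 0.00138) rose most firmly. FYN averaged 171.1 normalized counts in the combination, 117.9 in GSK126, 28.6 in lapatinib and 64.9 in DMSO. PTPN6, the gene of SHP-1, was the other gene higher with lapatinib besides INSR. Under spike-in scaling 2 of the 24, both lower, were called in lapatinib against DMSO, 1 in GSK126 against DMSO and 0 in the combination against lapatinib.

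Of 20 tested transcription factors reported to act on CEACAM promoters, 4 rose and none fell in lapatinib against DMSO (median log2 difference 0.0454, all genes 0.0377). In that comparison 28.0% of all genes were called. In GSK126 against DMSO 9 rose and 1 fell (median 0.301, all genes -0.0448), where 14.6% of all genes were called. In the combination against lapatinib 7 rose and 1 fell (median 0.318, all genes -0.0252), where 17.9% of all genes were called. KLF4, a factor of differentiating epithelium, averaged 2745 normalized counts in the combination, 1070 in GSK126, 1302 in lapatinib and 399.1 in DMSO, the same order of means as CEACAM5. It rose by 1.70 with lapatinib (limma, adjusted p = 3e-05) and by 1.08 in the combination against lapatinib (limma, adjusted p = 0.00111). SOX9, a factor of epithelial progenitors, rose by 0.94 with lapatinib (limma, adjusted p = 0.00219) and by 2.08 in the combination against lapatinib (limma, adjusted p = 5.47e-06), and IRF2 rose by 1.05 with lapatinib (limma, adjusted p = 0.0039). IRF1, an activator of interferon-responsive genes, averaged 2447 in the combination, 1907 in GSK126, 224.3 in lapatinib and 244.2 in DMSO. It rose by 3.45 in the combination against lapatinib (limma, adjusted p = 5.46e-08), and TFAP2A, a luminal factor, fell by 1.56 (limma, adjusted p = 1.7e-06). USF1 and USF2, named after their values were seen because of the E-box, were called in none of the 4 comparisons. USF1 averaged 2083 in the combination, 2521 in GSK126, 1908 in lapatinib and 2284 in DMSO, and USF2 averaged 3802, 4193, 3743 and 4048 in the same order. Under spike-in scaling none of the 20 was called in lapatinib against DMSO and 3 were in GSK126 against DMSO.

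The genes near the CEACAM genes on chromosome 19 were looked at next. Taking the 3 nearest genes on each side of each member gave 18 that are no members, of which 7 were tested. In lapatinib against DMSO BCL3, which lies near CEACAM19 and encodes a partner of NF-κB, rose (0.81, limma, adjusted p = 0.014), and the lipase gene LIPE (-0.92, adjusted p = 0.00849) and the nectin-like receptor gene PVR (-0.64, adjusted p = 0.00928) fell. That is 3 of 7, with a median of -0.644, where 28.0% of all genes were called. In GSK126 against DMSO, where 14.6% of all genes were called, 0 of the 7 were called by limma, edgeR or DESeq2. Likewise 0 had an unadjusted limma p under 0.05 (median -0.27), whereas 1 was called without the third GSK126 library and 1 without the filter on low values. BCL3 fell in the combination against lapatinib (-1.19, limma, adjusted p = 0.00162), the 1 of 7 called there (median -0.174), where 17.9% of all genes were called. LIPE (-0.97, limma, adjusted p = 0.00367) and PVR (-0.82, adjusted p = 0.00121) fell in the combination against DMSO, and none rose there (median -0.58), where 42.1% of all genes were called. CEACAM7, CEACAM5 and CEACAM6 lie next to each other in this order, and with GSK126 the first was lower (-3.46) while the other two were higher (2.14 and 1.44). Of the 3 nearest genes on each side of this group, CEACAM21 alone was tested, with a log2 difference of 0.75 ± 0.70 for GSK126 (limma, adjusted p = 0.551). LIPE-AS1 overlaps LIPE on the other strand, and whether the counting used strand is not given in the sources used here.

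**Figure D4:**
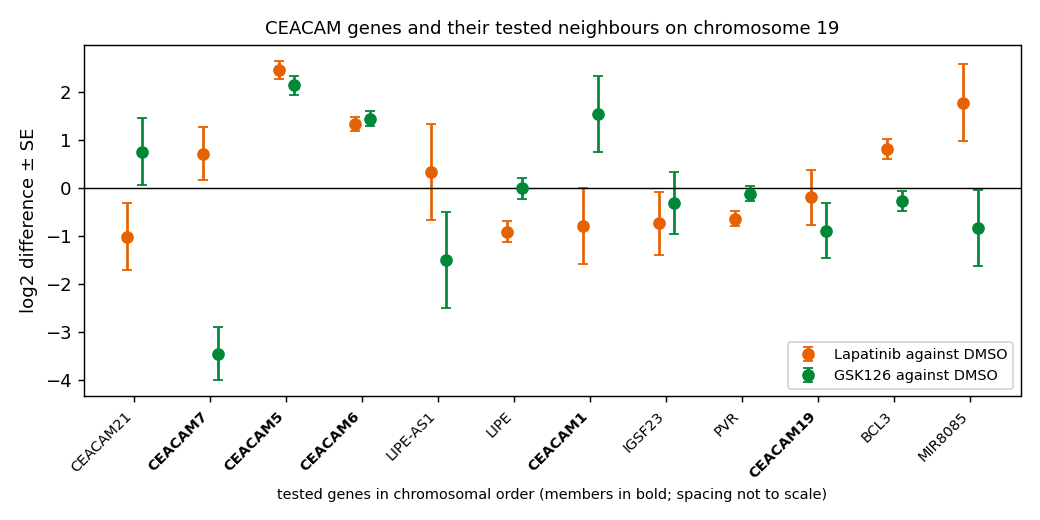
Fitted log2 differences, with bars of 1 SE, of the tested CEACAM genes (bold) and their tested neighbours in the order in which they lie on chromosome 19, for lapatinib and GSK126 against DMSO. CEACAM5 and CEACAM6 are high for both drugs (1.33 to 2.46), and CEACAM7 beside them is lowest for GSK126 (-3.46).

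Likeness over the 12 libraries was measured by Pearson's r of log2(value + 1), as a description in which the libraries of a group and their scaling are shared by all genes. CEACAM5 and CEACAM6 had r = 0.989 with each other. CEACAM5 had r = -0.16 with CEACAM7 and 0.439 with CEACAM1. Outside the family the genes most like CEACAM5 were CHAC1 (0.99), MYZAP (0.989), SNX33 (0.987), ACSS1 (0.986) and KRT23 (0.985). CHAC1, a glutathione-degrading enzyme, averaged 1785 ± 36.8 normalized counts in the combination, 239.9 ± 60.3 in GSK126, 241.9 ± 11.1 in lapatinib and 64.9 ± 10.8 in DMSO (SD, n = 3 each), and the keratin gene KRT23 averaged 484.7 ± 51.9, 77.5 ± 17.6, 80.1 ± 13.2 and 30.6 ± 7.65 in the same order. Most like CEACAM6 were A2ML1 (0.99), TMPRSS2 (0.984), KIAA0513 (0.984), SNX33 (0.98) and KMO (0.98). TMPRSS2, a protease of the epithelial surface, averaged 4171 ± 188 in the combination, 1636 ± 304 in GSK126, 1203 ± 47.0 in lapatinib and 447.8 ± 45.2 in DMSO. SNX33 was thus among the 5 nearest of both. Most like CEACAM7 were SMARCA1 (0.959), CXCR2 (0.959), ID2 (0.952), THRSP (0.952) and ABCC6 (0.948). For CEACAM1 these were CCDC85A (0.966), ACTBL2 (0.946), FOLH1 (0.908), TNFRSF11B (0.902) and STRIP2 (0.897), of which CCDC85A was as low in the first GSK126 library as CEACAM1, at 2.19 normalized counts against a highest of 53.7 in GSK126. For CEACAM19 they were CTAGE9 (0.909), NME5 (0.889), ZNF540 (0.862), WFIKKN1 (0.857) and LOC100506746 (0.855).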

How the data were processed

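Messenger RNA was sequenced as 75 bp single-end reads from 12 SKBR3 libraries in 4 groups of 3. Per the submitters' processing notes, STAR, DESeq2 and the build hg19 were used, and no versions are listed. The counter, its annotation and its handling of strand are not given in the sources used here. The unit of the deposited table is a signal, per gene and library: counts of reads that the authors scaled by size factors. Reads were recovered from them, and 100% of values came out within 0.01 of a whole number. Among its 22256 features 86 are spike-in transcripts. Genes with at least 10 in at least 3 libraries were tested, which left 14179.

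Log2(value + 1) of all 12 libraries was fitted in limma 3.58.1 (R 4.3.3), with group means, a trended prior variance and 8 residual degrees of freedom, and genes were called at an adjusted p under 0.05 (Benjamini-Hochberg over all genes tested). Fold changes are on the log2(value + 1) scale, which understates changes of low genes. The fit was tested on simulated data. The alternatives were other pseudocounts, filters and scalings, the groups compared alone, a replicate block, each library left out, and edgeR 4.0.16 and DESeq2 1.42.0 on the recovered reads. On those reads edgeR called 3877 genes in lapatinib against DMSO, 2000 in GSK126 against DMSO, 2525 in the combination against lapatinib and 5873 in the combination against DMSO, against 3973, 2069, 2537 and 5970 by limma.

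The members and the gene lists were chosen with earlier results of these data known. Named from each list are up to 3 called genes with the smallest adjusted p in lapatinib against DMSO and up to 3 in the combination against lapatinib. Shared 75-base windows were counted over the GENCODE transcripts.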

Additional observations from a re-analysis of the deposited data

How the results depend on the processing

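The 4 calls of CEACAM5 and CEACAM6 in lapatinib against DMSO, GSK126 against DMSO and the combination against lapatinib held under all 25 alternatives but spike-in scaling, under which CEACAM5 alone held. Spike-in scaling left 1 member called in lapatinib against DMSO, 1 in GSK126 against DMSO, 0 in the combination against lapatinib and 2 in the combination against DMSO. It gave 2.33 for CEACAM5 in the combination against GSK126, and interactions of 0.407 for CEACAM5 and -0.146 for CEACAM6. It moved the median of all genes to -0.491 in lapatinib against DMSO, -0.486 in the combination against lapatinib and -0.937 in the combination against DMSO. The spike-ins were 0.384 to 1.72% of reads, their addition is not described, and the cause was not tested.

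The number of members called in the combination against lapatinib was 1 with a pseudocount of 0.5 and with a filter of 50, under which 1 was tested. It was 1 to 3 with a library left out, and 3 in the fit of only the groups compared, with DESeq2 and in both fits without several libraries, where CEACAM1 was called as well. In the combination against DMSO it was 2 with a pseudocount of 5, in the fit of only the groups compared, with DESeq2, without the first GSK126 and first combination libraries, and without the last 2 GSK126 and first combination libraries, and it was 1 to 3 with a library left out, 3 without the first GSK126 library. In GSK126 against DMSO it was 1 with the filter of 50, 4 without the first GSK126 and first combination libraries, and 2 to 4 with a library left out. The settings that leave out several libraries were chosen after seeing the data, because spike-in composition split the GSK126 and combination libraries. Counts that include CEACAM7 or CEACAM1 carry the limit of the filter on low values given above for these genes.

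The count of all genes called moved from 3973 in lapatinib against DMSO to 785 under spike-in scaling, 6091 with only the groups compared, 6229 without the last 2 GSK126 and first combination libraries, and 2545 to 2641 without a lapatinib library. In GSK126 against DMSO it moved from 2069 to 578 under spike-in scaling, 869 with only the groups compared, 3252 without the first GSK126 library, 3201 also without the first combination library and 4658 without the other 2 GSK126 libraries and the first combination library. In the combination against lapatinib it moved from 2537 to 408 and 5094 under the first 2 of these. Total-count scaling gave 2314 higher and 1476 lower against 1949 and 2024 in lapatinib against DMSO, 1535 and 261 against 1512 and 557 in GSK126 against DMSO, 1670 and 559 against 1637 and 900 in the combination against lapatinib, and 3921 and 1812 against 3114 and 2856 in the combination against DMSO.

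Whether the replicate numbers pair the libraries is not given by the labels. Correlations of same-numbered libraries, after the group means were taken out, ran from -0.334 to 0.352. With 3 libraries in a group they cannot decide it. With the replicate block, limma called 3731 genes in lapatinib against DMSO, 1809 in GSK126 against DMSO, 2295 in the combination against lapatinib and 5781 in the combination against DMSO, and the number of members called was 2, 2, 2 and 1, as without it. Depth limits CEACAM1, CEACAM7, CEACAM8 and CEACAM19, which had 0 to 117 reads per group.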

Other observations

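The other CEACAM and PSG genes that missed the filter were near 0. Of these 14 genes, 12 had their highest value in the first combination library, and 13 of the 18 relatives had no read in any DMSO library. In that library CEACAM16 had 8 reads, PSG11 had 7, CEACAM3 and PSG1 had 6 each, and CEACAM4 and CEACAM20 had 5 each. These are values of 1 library, and no comparison was made on them.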
